A study of Rattus norvegicus with 20 samples.

Results

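Nppa and Nppb encode the precursors of atrial natriuretic peptide and B-type natriuretic peptide, the hormones that heart muscle cells secrete. They were followed on 20 arrays of cultured neonatal rat heart cells given diclofenac, an anti-inflammatory painkiller that blocks the cyclooxygenases. Members were the non-control probes whose gene name was Nppa or Nppb and whose description named that gene. That gave 2 genes of 35581 gene names on the array, each with 1 probe of 41012. A further 2 probes carried the name Nppb with a description that gave only an expressed sequence tag (EST) from heart. They are shown beside the members and were not counted among them.

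Primary cultures were set up from heart tissue of neonatal rats, a tissue the labels give with the cell type cardiomyocyte, and grew for 1 day in DMEM before treatment. The 7 groups were untreated cultures (2 arrays) and cultures that received diclofenac for 6 h or for 24 h, at 1/25, 1/5 or 1 of a reference concentration (3 arrays in each of the 6 groups). The labels give neither a molar value for the reference concentration nor a time for the untreated cultures. The series text states 3 replicates a group, and 2 untreated arrays were analysed here. No label ties replicates to different cultures or animals, so p-values cover only array-to-array spread that may be technical.

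The precursors are cut outside or on the way out of the cell, by the protease corin for Nppa and mainly by furin for Nppb. The peptides bind the receptor Npr1, which makes cyclic GMP, and are cleared by the receptor Npr3 and by proteases such as neprilysin, encoded by Mme. Both genes are active in the fetal heart and, in the ventricle, are used as markers of stretch and hypertrophic growth. Diclofenac acts on prostaglandin synthesis, and no label states an expected direction for either gene.

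The 4 probes are shown because the Nppa and Nppb values rest on them, and positions are on build rn3 as the array files give them, written 5′ to 3′. The Nppa probe (A_44_P317600, for transcript NM_012612) lay at chr5:165084824-165084883, and the Nppb RefSeq probe (A_43_P14894, for NM_031545) at chr5:165073752-165073811, with 11012 bases between them. The files list both in ascending order. The EST probes A_44_P411756 (chr5:165072992-165073051) and A_44_P411757 (chr5:165073012-165073071) lay before the Nppb RefSeq probe and are listed in descending order. Capitals mark the 40 bases that the EST probes share.
Nppa A_44_P317600: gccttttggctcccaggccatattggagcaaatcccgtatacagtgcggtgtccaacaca
Nppb A_43_P14894: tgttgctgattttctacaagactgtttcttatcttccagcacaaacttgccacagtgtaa
EST A_44_P411756: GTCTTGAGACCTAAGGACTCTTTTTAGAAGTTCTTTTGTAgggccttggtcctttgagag
EST A_44_P411757: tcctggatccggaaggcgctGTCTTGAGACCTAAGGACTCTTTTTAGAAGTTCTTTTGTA

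On chromosome 5, 433 of 460 RefSeq probes (94.1%) were listed in the order that fits the strand of their gene in the RefSeq table of assembly GRCr8, where Nppa and Nppb are both on the plus strand. Both EST probes were listed in the opposite order, and over all chromosomes 0 of 4 EST probes with a gene strand, these included, were listed in its order. Since their description names no gene, they were given by probe name and not taken as a measure of the Nppb transcript. The Nppa probe was printed 10 times on each array, and the other 3 probes once.

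The arrays differed in brightness. The 75th percentile of the processed signal, the value each array was scaled by, lay between 3165 and 21937. The share of spots well above background lay between 64.1 and 88.2%. The third array of 1/5 for 24 h had the lowest of both values, and its percentile was 4.89-fold below the median of the other 19 arrays (15473). The next lowest percentiles were those of the first arrays of 1/5 and 1/25 for 24 h, at 9623 and 10726, and all 3 of these arrays were on the same slide. The 10 cardiomyocyte markers were measured and well above background on at least 19 arrays each. Some markers of other cell types were detected too. The collagen genes Col1a1 and Col1a2 were saturated on 20 of 20 arrays, and the endothelial gene Cdh5 and the leukocyte gene Ptprc were well above background on all 20. Other markers were dimmer: on the third array of 1/5 for 24 h, Pecam1 of endothelium, Csf1r of leukocytes and Dcn, Lum, Tcf21 and Fbln1 of fibroblasts were not well above background. In a mixed culture, fewer cells of a type and less RNA per cell cannot be told apart.

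Nppb was at the scanner's ceiling throughout. Every pixel of the RefSeq probe was saturated on 20 of 20 arrays, with a mean spot brightness of 65271 to 65273, where the saturation value was 65254 to 65256. Among all probes, 1114 (2.72%) were saturated on every array. Both EST probes were saturated on 19 of 20 arrays, and the exception was the third array of 1/5 for 24 h, where they read 14652 and 15285. On that array the RefSeq probe still had 69 of 69 pixels saturated.

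These values set only a lower limit on Nppb in each of the 7 groups. No fold change of Nppb is given for any of the 13 comparisons, because both sides were saturated on all arrays. Neither a difference nor the lack of one can be read from this probe. The scaled value of the RefSeq probe still varied, between 1.64 and 4.42 on the log2 scale, because the same ceiling was divided by a different percentile on each array. Its correlation with the negative log2 of the array's 75th percentile was 0.991 over 20 arrays and 0.965 over 19 without the dimmest (Pearson r, a description, since the percentile is part of the scaled value).

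**Figure D1:**
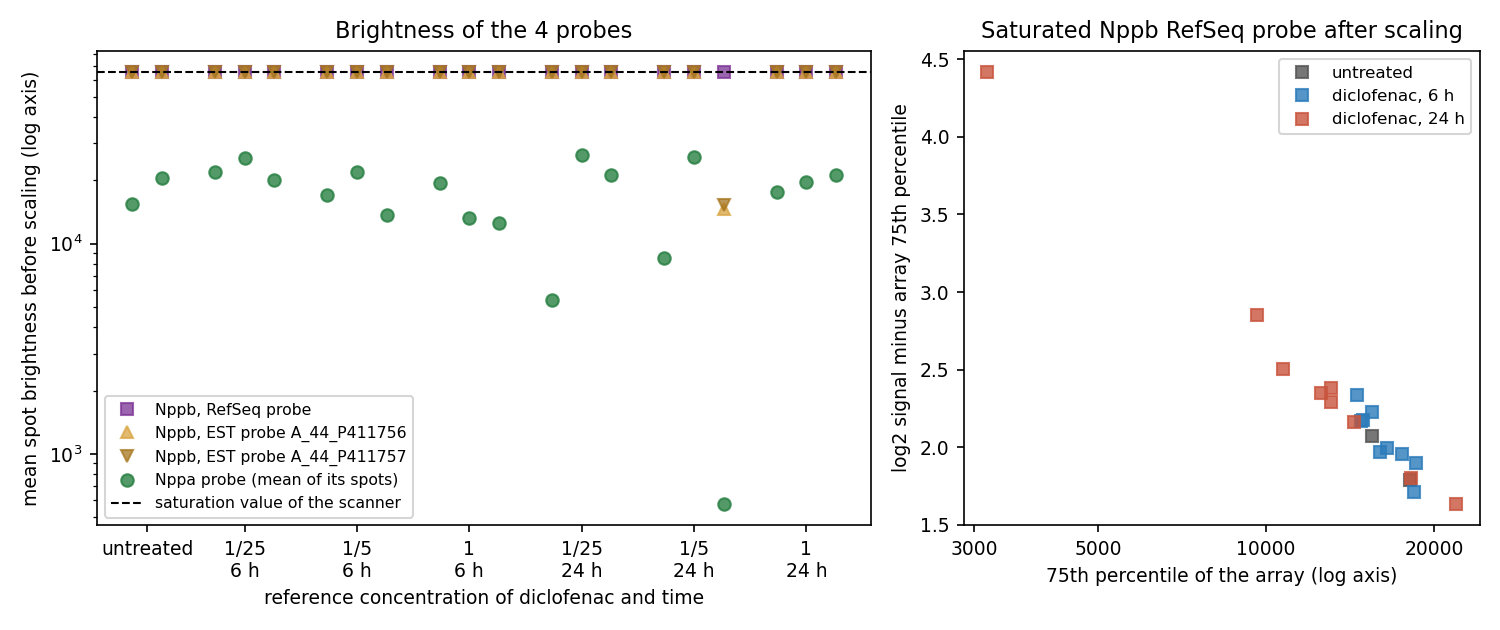
Left, mean spot brightness before scaling (log axis) of the Nppa probe and the 3 probes named Nppb on each of 20 arrays, grouped by reference concentration and time, with the saturation value as a dashed line. The RefSeq Nppb probe lies on the line on 20 arrays and the EST probes on 19. Right, the scaled log2 value of the saturated Nppb RefSeq probe against the 75th percentile of the array (log axis), where the dimmest array has the highest value, 4.42.

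The authors' deposited table, whose values are ratios to the untreated cultures, lists the Nppb RefSeq probe at 9.39 on the third array of 1/5 for 24 h and at 0.811 to 2.81 on the other 19 arrays. The spot behind the 9.39 was saturated, like those it was divided by. The same table lists Nppa between 0.169 and 2.37, and 0.169 belongs to the same array.

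Nppa was measured below the ceiling. None of its 200 spots was saturated, and the probe was well above background on 20 of 20 arrays. On 19 arrays its mean brightness before scaling lay between 5412 and 26485. Its replicate spots agreed closely within an array, with a median SD of 0.07 on the log2 scale (range 0.04 to 0.18).

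After scaling, Nppa read -0.29 and 0.37 on the untreated arrays (log2 signal minus the array's 75th percentile). At 6 h it read 0.19, 0.68 and 0.48 for 1/25, then 0.12, 0.52 and -0.29 for 1/5, and 0.05, -0.39 and -0.65 for 1. At 24 h it read -1.09, 0.99 and 0.72 for 1/25, then -0.20, 0.97 and -3.24 for 1/5, and -0.33, 0.44 and 0.16 for 1. Each of the 6 treated groups overlapped the range of the untreated arrays. Of the 18 treated arrays, 7 lay above both untreated arrays, 6 below both and 5 between them.

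**Figure D2:**
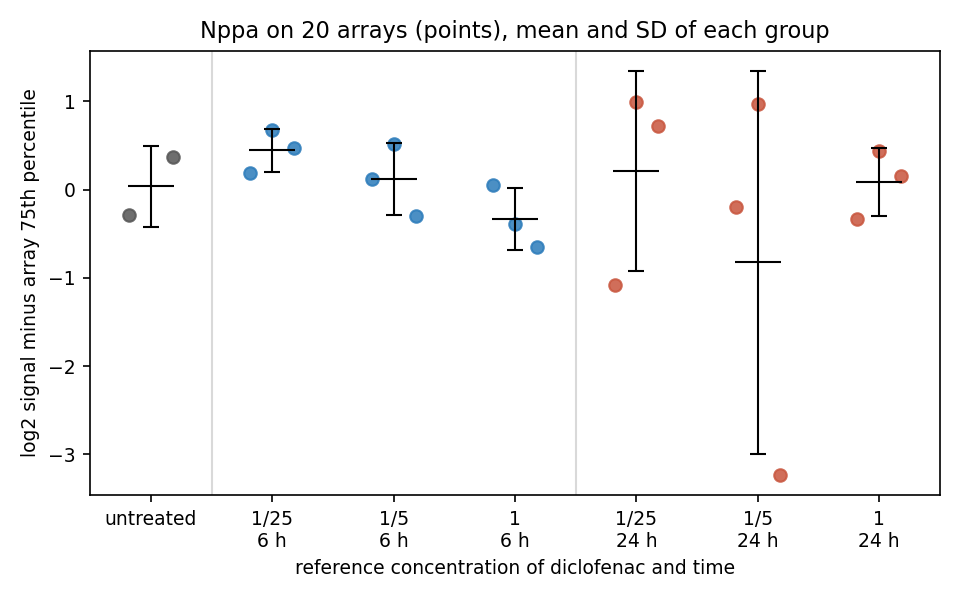
Scaled Nppa signal (log2 signal minus the 75th percentile of the array) by reference concentration and time, each point 1 array, with the mean and SD of the group (n = 2 untreated, 3 in each treated group). The treated groups overlap the untreated range of -0.29 to 0.37, and the lowest points are -3.24 in 1/5 for 24 h and -1.09 in 1/25 for 24 h.

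In order of the group means, Nppa was highest in 1/25 for 6 h at 0.45 ± 0.24 and next in 1/25 for 24 h at 0.21 ± 1.13 (SD, n = 3 each). Then came 1/5 for 6 h at 0.12 ± 0.41, 1 for 24 h at 0.09 ± 0.39 and untreated cultures at 0.04 ± 0.46 (n = 2). The lowest were 1 for 6 h at -0.33 ± 0.35 and 1/5 for 24 h at -0.82 ± 2.17. No neighbours in this order differed by more than their spread. The limma F test over all group means gave Nppa an adjusted p of 0.792. Of 30494 genes, 211 (0.692%) passed the threshold of 0.05 in that test.

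Against untreated cultures, Nppa differed by 0.41 ± 0.84 in 1/25, 0.08 ± 0.84 in 1/5 and -0.37 ± 0.84 in 1 at 6 h (log2 change ± SE, limma over all 20 arrays). The adjusted p-values were 1.00, with 0, 0 and 2 genes past the threshold in those comparisons (0, 0 and 0.00656%). The 95% interval for concentration 1 ran from -2.15 to 1.41, so neither a 2-fold rise nor a 2-fold fall lay outside it. Without any adjustment, 354, 332 and 453 genes had p-values under 0.05.

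At 24 h the changes against untreated cultures were 0.17 ± 0.84 in 1/25, -0.86 ± 0.84 in 1/5 and 0.05 ± 0.84 in 1. The limma adjusted p-values were 0.920, 0.481 and 0.999, where 0.00328%, 0.184% and 0.00328% of genes passed. For concentration 1 the interval ran from -1.74 to 1.83. The value for 1/5 turned positive, to 0.34, without the array at -3.24.

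Within 6 h the Nppa means were lower at each higher concentration. The arrays of 1 read -0.65 to 0.05 and those of 1/25 read 0.19 to 0.68. How many of all genes separate in this way was not counted, so no weight is put on it. The difference of 1 minus 1/25 was -0.78 ± 0.76 with a limma adjusted p of 1.00, in a comparison where 6 genes (0.0197%) passed. Slide 2 held 1 array of concentration 1 with the 3 of 1/5, and there 1 minus 1/5 was -0.76. Slide 1 held 2 arrays of concentration 1 and both untreated arrays, and there 1 minus untreated was -0.21. No slide held both 1 and 1/25 at 6 h, so that pair cannot be compared within a slide.

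At 24 h the order was not repeated: 1 minus 1/25 was -0.12 ± 0.76 (adjusted p = 0.983, with 0.00328% of genes past the threshold). The interaction of concentration and time, the difference between those contrasts, was 0.65 ± 1.07 (limma adjusted p = 1.00). In that test 0 of 30495 genes passed, and 783 had an unadjusted p under 0.05.

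Comparing 24 h with 6 h, Nppa changed by -0.24 ± 0.76 at 1/25, -0.94 ± 0.76 at 1/5 and 0.42 ± 0.76 at 1 (limma adjusted p = 0.892, 0.381 and 0.897). In those comparisons 0%, 0.0984% and 0.233% of genes passed. The mean of the 3 differences was -0.25 ± 0.44, with an adjusted p of 0.672 and a 95% interval of -1.17 to 0.67, and 21.0% of genes passed there. An exact permutation test of the times within each concentration, over 8000 relabellings, gave a two-sided p of 0.6765. Dividing by the array's median signal in place of the 75th percentile moved every gene by 0.39 in this contrast, and Nppa then read 0.14.

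**Figure D3:**
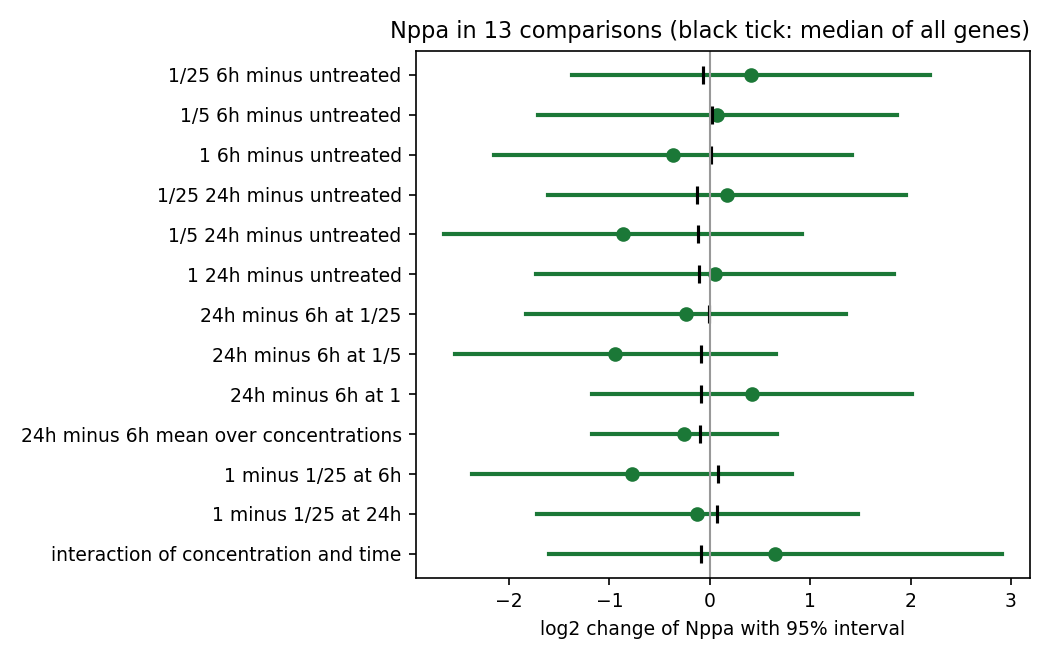
Log2 change of Nppa (points) with its 95% interval (lines) in 13 comparisons fitted with limma over 20 arrays, beside the median change of all genes (black ticks). Each interval includes 0, and that of the mean of 24 h minus 6 h runs from -1.17 to 0.67.

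Nppa varied most among the arrays of 1/25 and 1/5 for 24 h. The SD within a group was 0.24 to 0.46 in untreated cultures, in the groups of 6 h and in 1 for 24 h. It was 1.13 in 1/25 and 2.17 in 1/5 at 24 h. The median SD between arrays of a group, 0.41, was larger than that between spots of an array, so the arrays and not the spots limit the precision.

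The third array of 1/5 for 24 h had the lowest Nppa of all. Its 10 spots read 288 to 396 (processed signal), and each was well above background, which on that array began at 136. Their mean processed signal, 337, was 57.7-fold below the median of the other 19 arrays (19458), while the 75th percentile of that signal was 4.89-fold lower. In spot brightness, which still includes the background, Nppa was 579 there, 33.8-fold below the median of the other 19 arrays (19549). By brightness the EST probes were at least 4.45-fold and 4.27-fold lower there than on the other 19 arrays, where they were saturated. Relative to the other 2 arrays of its group, the difference in Nppa was -3.62, and 5.58% of 30429 genes were lower still. On the same slide, Nppa read -1.09 on array 1 of 1/25 for 24 h.

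**Figure D4:**
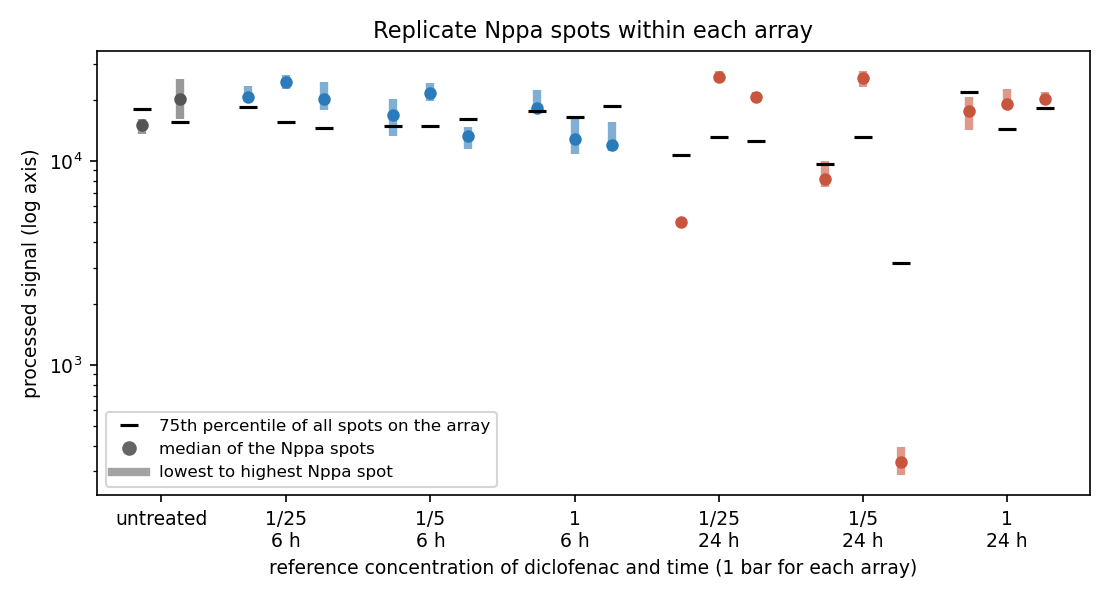
Processed signal (log axis) of the replicate Nppa spots on each of 20 arrays, as the lowest to the highest spot (bars) and their median (points), with the array's 75th percentile (black dashes). The spots of an array lie close together, and on the third array of 1/5 for 24 h all spots, 288 to 396, lie far below its percentile of 3165.

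Markers of cell types moved on that array as well. Of 10 cardiomyocyte markers, 7 were lower there than on both other arrays of 1/5 for 24 h, 2 were higher than both and 2 were not well above background. Tnnt2, which was higher, was saturated there, and the markers not well above background were Ttn and Mybpc3. The mean of the 10 markers was -1.49 there, against -0.04 and 0.38 on the other arrays of the group and 0.49 to 0.64 on the untreated arrays. It is set in part by the background. Of 4 smooth muscle markers, 3 were lower than on both others. Myh11, Tagln and Des were not well above background there, so the list mean of -3.89, against -0.55 and -0.58, is set in part by the background. Of 9 fibroblast markers, 4 were not well above background there and 4 were saturated (Col1a1, Col1a2, Col3a1 and Pdgfra), so no direction is given for that list. Other lists moved the other way or both ways. Endothelial markers were higher than on both others in 6 of 7, erythroid ones in 3 of 3 and atrial ones in 1 of 2. Leukocyte markers were lower in 4 of 6 and higher in 1, and mesothelial ones lower in 2 of 5 and higher in 1. Of these lists, 1 endothelial, 1 erythroid, 1 atrial, 1 leukocyte and 4 mesothelial markers were not well above background there. Cdh5, counted as higher, read -4.32 against -4.33 and -5.25. The share of all genes lower or higher than on both other arrays was not counted, so no weight is put on these counts. The part of these shifts, and of the array's low signal, in the Nppa value was not tested.

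The genes whose values ran most like Nppa over the 20 arrays were Fbln2 (an extracellular matrix protein), Rpsa (a ribosomal protein), Irak1bp1, Or7g33c and Tubgcp5. Their Pearson r with Nppa was 0.965, 0.954, 0.943, 0.924 and 0.917, among 12262 named genes with a value on every array and saturation on at most 10 arrays. This is a description with no test, since the points share arrays and scaling. It rests in part on the dimmest array: 12 genes had an r over 0.9 with it and 1 gene, Fbln2 at 0.912, without it. There Irak1bp1 and Tubgcp5 read -6.64 and -5.84, which was not well above background. Fbln2 was saturated on 6 arrays and Rpsa on 5, so part of their values is the scanner's ceiling. Of the genes listed below, Tagln (a smooth muscle protein) had an r of 0.895, the stretch-responsive Ankrd1 0.890 and Myocd, a coactivator of serum response factor, 0.883. Without the dimmest array these were 0.814, 0.625 and 0.599. The r of Nppa with the scaled Nppb RefSeq probe was -0.65, which says nothing of the Nppb transcript, since that probe was saturated on every array. With the negative log2 of the 75th percentile itself, the r of Nppa was -0.67 over 20 arrays and 0.14 over 19.

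The third peptide gene of the family, Nppc, encodes C-type natriuretic peptide, which is known mainly from endothelium, cartilage and brain. Its probe, shown because this ligand passed the test, lay at chr9:85617841-85617900 and is listed in descending order.
Nppc A_44_P240696: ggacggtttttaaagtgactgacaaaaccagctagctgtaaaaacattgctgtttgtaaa

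Nppc read -5.01 and -4.58 on the untreated arrays. At 6 h it read -4.04, -6.86 and -5.22 for 1/25, then -4.47, -4.24 and -4.86 for 1/5, and -4.79, -5.22 and -4.05 for 1. At 24 h it read -3.18, -4.02 and -3.56 for 1/25, then -2.76, -3.47 and -1.24 for 1/5, and -3.15, -3.10 and -3.43 for 1. The 9 arrays of 24 h spanned -4.02 to -1.24 and the 9 of 6 h spanned -6.86 to -4.04, so the ranges nearly touched. How many of all genes separate by time in this way was not counted. The array at -6.86 was not well above background.

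In the mean of 24 h minus 6 h, Nppc rose by 1.76 ± 0.35 (limma adjusted p = 0.00634). In that direction 7.69% of genes passed. It passed in 28 of 29 alternative settings, which include a random slide block and array weights, with limits given below. The exception was the fit without the 3 dimmest arrays, with a change of 1.37. That fit keeps only 1 array of 1/5 for 24 h, here and wherever it is used below. On slide 4, which held both times, the 3 arrays of 1 for 24 h read -3.43 to -3.10 and the 1 array of 1/25 for 6 h read -5.22. Time differs from slide at each concentration, and the times shared no slide at the same concentration, so time and slide cannot be told apart. Against untreated cultures Nppc differed by 1.21 ± 0.68 in 1/25, 2.31 ± 0.68 in 1/5 and 1.57 ± 0.68 in 1 at 24 h. Those did not pass (adjusted p = 0.410, 0.129 and 0.999). The other related ligand, Ostn, did not pass the filter on dim probes.

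**Figure D5:**
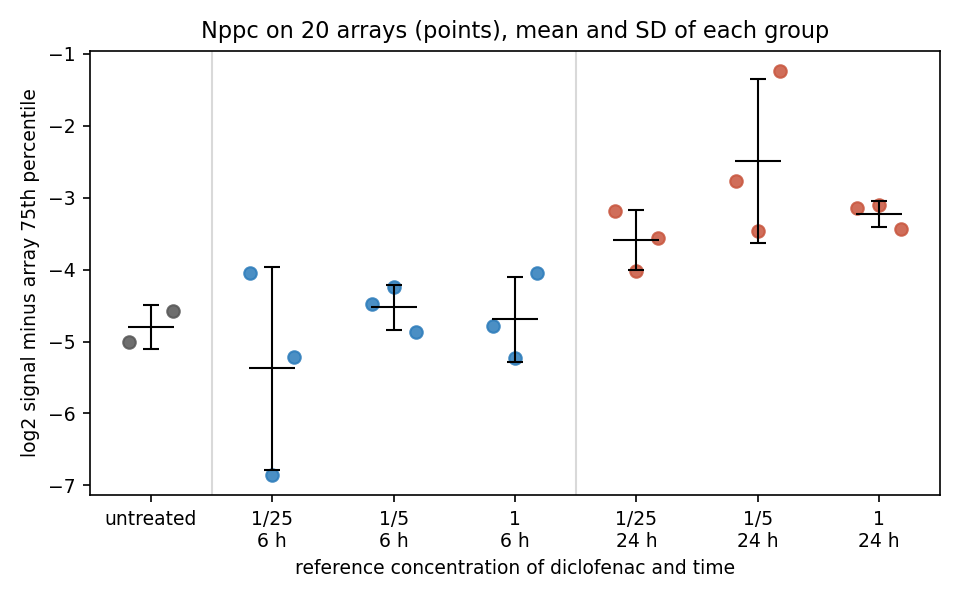
Scaled Nppc signal (log2 signal minus the 75th percentile of the array) by reference concentration and time, each point 1 array, with the mean and SD of the group (n = 2 untreated, 3 in each treated group). The 9 arrays of 24 h span -4.02 to -1.24 and the 9 of 6 h span -6.86 to -4.04.

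The lists below were read in the mean of 24 h minus 6 h, the contrast with the most calls, in which the median change over all genes was -0.09. Over all lists, 10 of 99 measured genes rose and 17 fell, a share of 27.3% against 21.0% of all genes, and no test was made of that gap. The split turned with the scaling: after division by the median 31 rose and 13 fell, and with the authors' ratios 32 rose and 13 fell. The count was 25 without the dimmest array and 6 without the 3 dimmest arrays. In the 6 comparisons with untreated cultures, 1 list gene passed in all, Krt7, a keratin of mesothelium. In 1/5 for 24 h no array had it well above background, and it was at least 14.8-fold lower there than in untreated cultures (limma adjusted p = 0.0142). In that comparison 0.0656% of genes passed as higher and 0.118% as lower. Comparing 24 h with 6 h at single concentrations, 1 list gene passed. It was Slc4a1 of red blood cells, at 1/5 (-2.33 ± 0.41, limma adjusted p = 0.0398), where its value on the dimmest array was not well above background. There 0.0492% of genes passed in each direction, against 0.0557% higher and 0.177% lower at 1.

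Among the receptors, 0 of 3 passed, with a median change of 0.20. Npr1, the receptor of both cardiac peptides, changed by 0.11 ± 0.27 and turned to -0.14 without the dimmest array. The receptor of C-type peptide, Npr2, changed by 0.69 ± 0.30 (limma adjusted p = 0.0957), and Npr3, the clearance receptor, by 0.20 ± 0.18. At 24 h Npr2 averaged 1.36 ± 0.20 in 1/25, 2.07 ± 1.63 in 1/5 and 0.99 ± 0.04 in 1, against 0.69 ± 0.01 in untreated cultures (SD). The dimmest array read 3.94, and without it Npr2 changed by 0.38 and passed (adjusted p = 0.0226). After division by the median, Npr2 and Npr3 passed, at 1.08 and 0.60.

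Of 5 genes of processing and clearance, 1 rose, and the median change was 0.41. Pcsk6, a convertase that activates corin, rose by 0.77 ± 0.26 (adjusted p = 0.0448) and was saturated on 7 of 9 arrays of 24 h and 1 of 9 of 6 h, so its value at 24 h is a lower limit. It passed in 13 of 28 alternatives. Mme changed by 0.76 ± 0.28 (adjusted p = 0.0634), Ide, an insulin-degrading protease that also cuts natriuretic peptides, by -0.45 ± 0.20, and Corin by 0.07 ± 0.29. Corin was well above background on 15 of 20 arrays, and Furin was saturated on 19.

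Of 5 genes of cyclic GMP signalling that were measured, 1 fell: Pde5a, a phosphodiesterase of cyclic GMP, by 1.15 ± 0.38 (adjusted p = 0.0421). It was well above background on 1 of 3 arrays of 1/5 for 24 h and passed in 11 of 29 alternatives, not without the dimmest array (adjusted p = 0.0606). Pde10a was saturated on 19 arrays. For concentration 1 at 24 h minus untreated, Pde2a differed by -0.63 ± 0.55 and Pde3a by -0.14 ± 0.40.

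Among 17 transcription factors known to act on these promoters, 2 rose and 3 fell, with a median change of -0.25. Klf15, a repressor of hypertrophic genes, rose by 0.91 ± 0.29 (adjusted p = 0.0391), and Yy1 rose by 0.48 ± 0.16 (0.0477). The mean of the kept Yy1 probes gave -0.97, so its probes disagreed. Rest, which represses Nppa and Nppb, fell by 1.60 ± 0.46 (adjusted p = 0.0272), Nfatc4, an effector of calcineurin, by 1.34 ± 0.45 (0.0453) and Tbx20 by 2.29 ± 0.79 (just under the threshold). They passed in 15, 9, 21, 10 and 9 of the alternatives, in the order Klf15, Yy1, Rest, Nfatc4 and Tbx20, with 28 alternatives for Yy1 and 29 for the others. Without the 3 dimmest arrays none of the 5 passed, and without the dimmest alone Klf15, Nfatc4 and Tbx20 did not (adjusted p = 0.0522, 0.0691 and 0.0769). On the dimmest array Rest and Tbx20 were not well above background. On array 1 of 1/5 for 24 h they read -6.01 and -6.74, which was also not well above background. The sizes of their falls are therefore approximate. For concentration 1 at 24 h minus untreated, Tbx20 differed by -2.06 ± 1.54 and Srf, saturated on 9 of 20 arrays, by -0.99 ± 0.60.

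Of 8 measured hypertrophic stimuli and their receptors, Edn1, the precursor of endothelin, fell by 1.72 ± 0.49 (adjusted p = 0.0260) and passed in 22 of 29 alternatives. Edn1 was not well above background on the dimmest array, so that size is approximate. Ednrb changed by 0.60 ± 0.31 (0.35 without the dimmest array), and Agt, for angiotensinogen, differed by -0.38 ± 0.47 in concentration 1 at 24 h minus untreated. Among 8 other genes of the fetal cardiac program, 0 passed. Acta1, skeletal actin, changed by -1.32 ± 0.56 (adjusted p = 0.0930) and Myh7, the slow myosin heavy chain, by 1.10 ± 0.42 (0.0656). Without the dimmest array, where Myh7 was saturated, they changed by -0.77 and 0.72 and did not pass. For concentration 1 at 24 h minus untreated, Myh6 differed by -0.63 ± 0.93 and Xirp2 by -0.60 ± 0.81. Actc1 was saturated on 20 of 20 arrays.

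Genes near Nppa and Nppb on chromosome 5 in the RefSeq table of GRCr8 were read as well. Agtrap, for a protein that binds the angiotensin receptor, fell by 2.49 ± 0.69 (limma adjusted p = 0.0231), in a direction where 13.4% of genes passed. On slide 4 its mean was higher by 0.16 in concentration 1 for 24 h than in the 1 array of 1/25 for 6 h. It did not pass without the 3 dimmest arrays (-1.08, adjusted p = 0.155). On the dimmest array Agtrap was not well above background, so the size of its fall is approximate. Clcn6 changed by -0.60 ± 0.28, Plod1 by 0.39 ± 0.16 and Miip by -0.10 ± 0.21, none past the threshold. The mean of the kept Plod1 probes gave -1.30, and Mfn2 was saturated on 17 of 20 arrays.

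Marker lists of cell types moved in the same contrast. Of 10 cardiomyocyte markers, Myl3 rose by 0.63 ± 0.20, and Ryr2 fell by 0.99 ± 0.27, Actn2 by 1.60 ± 0.48 and Mybpc3 by 2.06 ± 0.71. Ckm differed by -1.60 ± 0.56 in concentration 1 at 24 h minus untreated. Of 2 atrial markers Sln fell by 1.58 ± 0.35, and Myl7 changed by 0.39 ± 0.20. The median change of the cardiomyocyte list was -0.47, and its array means lay between -0.08 and 0.31 in 1 for 24 h and were 0.56 in 1 for 6 h. At the other concentrations the array means of the times overlapped. For 1/25 they were -0.08 to 0.57 at 24 h and 0.31 to 0.77 at 6 h, and for 1/5 they were -1.49 to 0.38 and 0.13 to 0.35. Among 9 fibroblast markers Pdgfra, saturated on 7 of 20 arrays, rose by 0.91 ± 0.25 and Dpt fell by 0.79 ± 0.26, with a list median of -0.04. Fbln1 of that list changed by -1.33 ± 0.56, and Col3a1 differed by -0.60 ± 0.79 in concentration 1 at 24 h minus untreated. Of 4 smooth muscle markers, with a median of -0.89, Cnn1 fell by 1.27 ± 0.35 and Myh11 by 1.21 ± 0.30. Of 7 endothelial markers, with a median of 0.19, Kdr rose by 0.98 ± 0.24 and Vwf by 1.72 ± 0.37, and Cdh5 changed by -0.71 ± 0.27. Of 6 leukocyte markers Ptprc rose by 0.98 ± 0.21 and Cd68 by 0.83 ± 0.26, while Cd14 changed by -1.24 ± 0.45 (-0.80 without the dimmest array, adjusted p = 0.0382), and the median was -0.41. Among 3 erythroid markers Slc4a1 fell by 1.56 ± 0.24 and Ahsp changed by -0.39 ± 0.30 (-0.62 without the dimmest array). Of 5 mesothelial markers Krt7 fell by 2.01 ± 0.38 and Upk3b by 0.87 ± 0.30, and Wt1 differed by -0.88 ± 0.57 in concentration 1 at 24 h minus untreated. The Krt7 value includes the 3 arrays of 1/5 for 24 h that were not well above background, and the Upk3b value 1 such array, so their sizes are approximate. The same holds for Mybpc3, Sln, Fbln1, Myh11 and Slc4a1, which were not well above background on the dimmest array. Sln and Fbln1 were also not well above background on array 1 of 1/5 for 24 h, at -6.92 and -6.30. Medians of the erythroid and mesothelial lists were -0.39 and -0.29. Without the 3 dimmest arrays, Myh11, Ptprc, Slc4a1 and Krt7 passed and the other markers called above did not. Mybpc3 and Upk3b did not pass without the dimmest array alone (adjusted p = 0.0684 and 0.0677). The part of cell makeup in the values of Nppc and the other genes was not tested.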

How the data were processed

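RNA was labelled with Cy3 and hybridised to 1-colour Agilent rat arrays. Per the file headers, Agilent Feature Extraction 9.5.3.1 made the deposited intensity values, background-subtracted and not scaled between arrays, from 1 scan pass. The authors' deposited table holds a ratio: checked against the intensities, each processed signal over the array's median and then over the mean of the untreated arrays (99.8% of values within 5%). It served as an alternative.

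Here, log2 processed signals minus the array's 75th percentile were used. Outlier and non-uniform spots were left out, saturated spots kept, and replicate spots averaged. Dim probes were dropped: 35065 of 41012 had 1 group or more in which all arrays were well above background. Each gene was read from its brightest remaining probe (30496 genes). By that rule an EST probe would stand for Nppb, so its probes were read singly. Limma 3.58.1 in R 4.3.3 fitted 7 group means over 20 arrays, with empirical Bayes moderation, two-sided tests and Benjamini-Hochberg adjustment over all genes of a comparison (threshold 0.05). The fit was tested on simulated data. Python 3.11.15, pandas 2.3.3, numpy 2.4.6 and matplotlib 3.10.9 were used for the rest. The number of arrays limits the precision.

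Members and lists were chosen with earlier results of these data known. All measured genes of the receptor, processing, related-ligand and neighbour lists were named, except 1 neighbour that is not reported here. Of the other lists, members past the threshold were named, and the 2 with the largest change in the mean of 24 h minus 6 h and in concentration 1 at 24 h minus untreated. Likeness took the 5 genes with the highest r. Symbols were updated from RefSeq by accession for 10811 probes, by symbol for 5556 and by synonym for 3716, and 20929 kept the file's name. No 2 arrays held identical signals. Probe sequences are those in the array files. Protein sequences were not used here.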

Additional observations from a re-analysis of the deposited data

How the results depend on the processing

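Nppa was refitted under 36 alternative settings, giving 263 values over 13 comparisons. Of these, 235 kept their direction and their side of the threshold, 27 turned direction without passing it and 1 passed it. The value that passed was 24 h minus 6 h at 1/5 without array 2 of 1/5 for 24 h (-1.84, adjusted p = 0.0498). The causes were not tested.

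Dividing by the median, or using the authors' ratios, gave 0.11 and 0.11 for 24 h minus 6 h at 1/25, and 0.14 and 0.15 for the mean over concentrations. Array weights, whose gene-by-gene estimate alone was chosen after seeing the data, gave 0.21 and 0.10. A random slide block gave -0.037 for 1/5 at 6 h minus untreated and -0.0036 for 1 at 24 h minus untreated, and a scan day block gave 1.17 for 1 minus 1/25 at 24 h. Leaving out the 3 dimmest arrays, a set chosen after seeing the data, kept only 1 array of 1/5 for 24 h. The 1/5 values at 24 h then rest on that array. In that fit 1/5 at 24 h minus untreated was 0.93. There 24 h minus 6 h was 0.85 at 1/5 and 0.41 at 1/25, and the mean over concentrations was 0.56.

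Leaving out 1 array at a time gave, against untreated cultures, 0.08 to 0.73 for 1/25, -0.25 to 0.40 for 1/5 and -0.70 to -0.04 for 1 at 6 h, and -0.22 to 0.82 for 1/25, -1.76 to 0.34 for 1/5 and -0.28 to 0.37 for 1 at 24 h. For 24 h minus 6 h it gave -0.63 to 0.41 at 1/25, -1.84 to 0.27 at 1/5, 0.24 to 0.63 at 1 and -0.55 to 0.15 for the mean. For 1 minus 1/25 it gave -0.97 to -0.62 at 6 h and -0.77 to 0.27 at 24 h, and for the interaction 0.0061 to 1.045. The positive ends at 1/5 and of the mean were reached without array 3 of 1/5 for 24 h. The F value of the test over all groups was 0.61, with 0.49 to 1.93 when 1 array was left out and 3.31 without the 3 dimmest arrays (adjusted p = 0.305).

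The list genes past the threshold in the mean of 24 h minus 6 h, 27 of 99, became 44 by the median, 45 by the authors' ratios, 54 with a random slide block, 70 with array weights, 6 without the 3 dimmest arrays, and 9 to 50 when 1 array was left out. Over all genes the count was 6418, with 1400 without the 3 dimmest arrays and 21688 with array weights. The random slide block had a correlation of -0.17, which narrows the errors between slides and does not remove a slide shift. Array weights were 23.0 for array 3 of 1 for 24 h, against 0.53 and 0.51 for the others of its group. In 1/5 for 24 h they were 6.01, 0.22 and 0.03, so these group means rest mostly on 1 array each. The higher counts in those settings add no support. In the mean of 24 h minus 6 h, Ahsp turned to 0.0060 by the median and 0.0104 by the ratios. Corin turned to -0.21 without the 3 dimmest arrays and spanned -0.15 to 0.24 when 1 array was left out. Miip turned to 0.22 by quantiles, 0.30 by the median, 0.30 by the ratios and 0.13 with array weights. Npr1 turned to -0.27 with array weights and -0.17 without the 3 dimmest arrays, and spanned -0.14 to 0.24 when 1 array was left out. The mean of the kept probes gave -1.30 for Plod1 and -0.97 for Yy1.

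With the replicate number as a block, the mean of 24 h minus 6 h for Nppa was -0.25 ± 0.41 (limma adjusted p = 0.650), no Nppa call changed, and 17 list genes and 4681 of all genes passed. Deviations from the group means of 57 same-numbered pairs had a median correlation of -0.04, against 0.04 for other pairs. Same-numbered pairs ranged from -0.76 to 0.64, so whether the numbers mark shared cultures cannot be told from these values.

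Saturation limits Nppb to a lower bound. For 24 h against 6 h, slide and time cannot be told apart.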
